A study of Bos taurus with 24 samples.

Results

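Oocyte transcription factors are described here as a set of 9 genes, chosen by symbol: NOBOX, FIGLA, SOHLH1, SOHLH2, LHX8, TAF4B, TBPL2, POU5F1 and GTF2B. Of these, 7 matched 1 row each among the 17071 rows of the table, and SOHLH2 and POU5F1 matched no row and were not analysed here. RNA of 24 single bovine oocytes at metaphase II was measured by CEL-seq2, a method that primes cDNA at the poly(A) tail and tags each molecule with a unique molecular identifier (UMI). The 12 siRNA injected oocytes, labelled as scrambled siRNA injected, had received a commercial non-specific siRNA mixed with a fluorescent dextran at the germinal vesicle stage, and only fluorescent ones were kept. The 12 non-injected oocytes, labelled wild type, went through the same culture. Both groups came from slaughterhouse ovaries, were held for 16 h with roscovitine, an inhibitor of cyclin-dependent kinases, matured for a further 22 h and were collected once a first polar body was seen. No group received dextran or the needle alone, so effects of siRNA, dextran and puncture cannot be told apart. No source used here says which oocytes shared a cow, so the p-values speak only of the spread among the oocytes collected.

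Transcription by RNA polymerase II starts when general factors gather on a promoter. TFIID, which holds the TATA-binding protein TBP and its associated TAF subunits, binds first and is stabilised by TFIIA, and TFIIB, the product of GTF2B, then bridges it to the polymerase. TAF4B is a TAF found mainly in gonads, and TBPL2 takes the place of TBP in growing mouse oocytes, where it works with TFIIA. NOBOX and LHX8 are homeodomain proteins, and FIGLA, SOHLH1 and SOHLH2 are basic helix-loop-helix proteins. In the mouse these factors are needed for the formation and early growth of follicles and for the activity of genes such as those of the zona pellucida. POU5F1 is a factor of pluripotent cells and the germ line. At metaphase II the chromosomes are condensed and transcription is silent, so an mRNA made by the oocyte and found there is one kept from growth.

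The oocytes held between 134080 and 415554 UMIs each, so that 1 UMI was worth 2.27 to 7.35 RPM (reads scaled to the size of the library, after reads with the same UMI had been counted once). The identity of the cells was checked against marker lists. The 10 measured oocyte markers summed to 8511 to 10480.0 RPM in siRNA injected and 8359 to 10962 RPM in non-injected oocytes, led by KPNA7, ZP2, H1FOO and ZP4 with means of 4015, 1879, 817 and 685 RPM. The 14 measured cumulus and granulosa markers summed to 172 to 277 RPM in siRNA injected and 156 to 261 RPM in non-injected oocytes. Among these 5 were under a mean of 1 RPM, with LUM at 0 and FSHR, the receptor for follicle-stimulating hormone, above 0 in 1 oocyte, while HAS2, INHBA, PTGS2 and KRT8 were the highest at 86.4, 39.9, 25.5 and 18.1 RPM. Of 3 measured blood markers PTPRC was at 0, and CD68 and CD3E averaged 0.287 and 7.99 RPM. HBB and HBA of the blood list were not measured, nor were TNFAIP6, INHA, AMHR2 and KRT18 of the cumulus and granulosa list. The siRNA injected oocyte 8 had the most rows above 0 RPM, 12093, and it also had the highest NOBOX, LHX8, FIGLA and TBPL2 of its group. The log2 fold changes of the factors are therefore also given without it.

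The 7 measured factors fell into a high and a low set at metaphase II. GTF2B, NOBOX, LHX8 and FIGLA were above 0 in 24 of 24 oocytes, with means of 372 ± 106, 212 ± 66.7, 61.3 ± 18.8 and 42.7 ± 16.2 RPM (SD, n = 24). SOHLH1, TAF4B and TBPL2 averaged 7.57 ± 7.26, 6.97 ± 5.24 and 4.68 ± 4.01 RPM, which rested on 55, 46 and 35 UMIs over all oocytes. Some genes listed for other cells reached like or higher levels. Of the cumulus and granulosa list, HAS2 averaged 86.4 RPM, above LHX8 and FIGLA, and INHBA averaged 39.9 RPM. The median mean over the 14 measured markers of that list was 3.33 RPM. CD3E averaged 7.99 RPM, beside PTPRC at 0 and CD68 at 0.287 RPM. LHX9 and GATA4 averaged 6.34 and 4.89 RPM, beside a median mean of 1.21 RPM over the 9 measured factors of granulosa and theca cells. Whether the counts of the 7 factors come from mRNA kept by the oocyte was not tested. Since CEL-seq2 counts the tail end of a molecule once, RPM is not divided by transcript length, and levels of different genes are compared here as RPM, that is as shares of the RNA primed at the poly(A) tail. Neither the amount of an mRNA per oocyte nor its tail length was measured. Of the 17071 rows, 97.0% had a lower mean RPM than GTF2B, 94.1% than NOBOX, 82.2% than LHX8 and 77.6% than FIGLA, against 53.5%, 52.3% and 47.0% for SOHLH1, TAF4B and TBPL2.

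The order of levels was clear between some neighbours and not between others. GTF2B exceeded NOBOX in 21 of 24 oocytes, and NOBOX exceeded LHX8 in 24 of 24, with means 3.46 times apart. LHX8 exceeded FIGLA in 18 oocytes and tied with it in 1, at a ratio of means of 1.44. FIGLA exceeded SOHLH1 in 24 of 24 oocytes (ratio 5.64). Below that gap the order was not settled by the data. SOHLH1 exceeded TAF4B in 12 oocytes and tied in 2, and TAF4B exceeded TBPL2 in 10 and tied in 7. The 7 rows together took 472 to 852 RPM (median 645) of each siRNA injected oocyte and 439 to 966 RPM (median 776) of each non-injected oocyte, so the groups overlapped over most of their range.

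**Figure D1:**
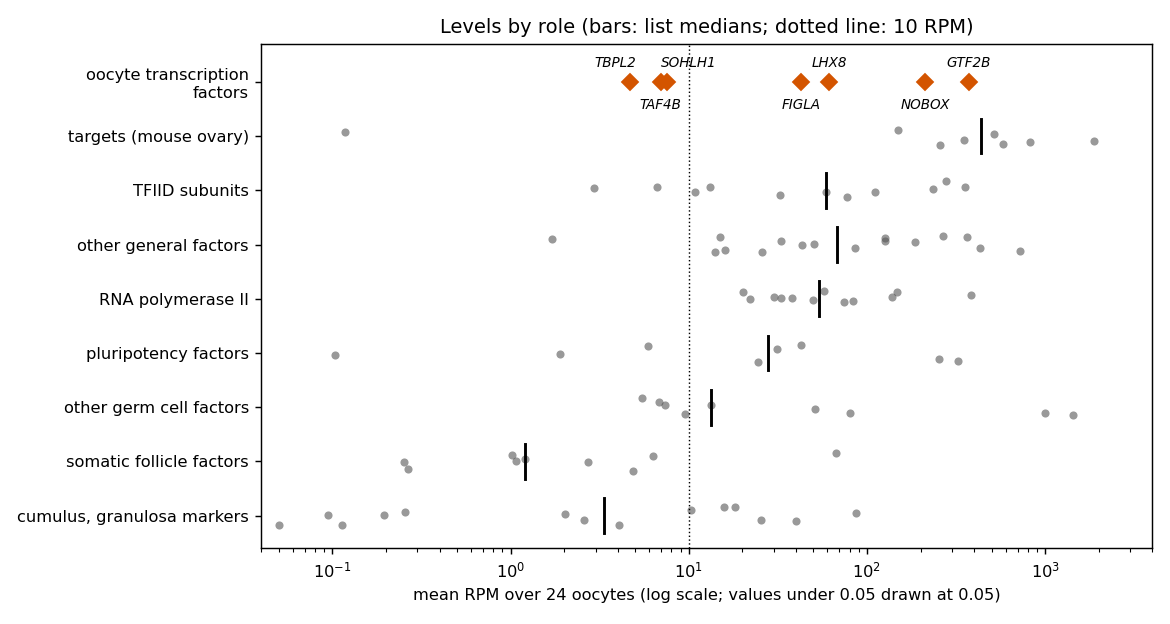
Mean RPM over 24 oocytes of each measured gene (log scale) by role; diamonds are the 7 transcription factors, grey points the genes of the other lists, black bars list medians, and the dotted line is the mean of 10 RPM needed for the expression test. GTF2B, NOBOX, LHX8 and FIGLA lie right of the line, and SOHLH1, TAF4B and TBPL2 lie left of it.

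GTF2B, the general factor TFIIB, was the highest of the set. Its values ran from 184 to 456 RPM with a median of 347 RPM in siRNA injected oocytes, against 151 to 576 RPM with a median of 453 RPM in non-injected oocytes. In 11 of 12 injected oocytes it lay below the non-injected median, and 6 non-injected oocytes lay above the highest injected one, yet the lowest value of all was in non-injected oocyte 3. The means were 334 ± 78.3 RPM with injection and 411 ± 119 RPM without (SD, n = 12 each). The log2 fold change was -0.26 (standard error 0.16, 95% interval -0.59 to 0.07, adjusted p = 0.536 from limma), which does not pass the threshold and allows a fold between 0.663 and 1.05. Without siRNA injected oocyte 8 the log2 fold change was -0.25 (adjusted p = 0.572). It was -0.38 without non-injected oocyte 3 (unadjusted p = 0.00899, adjusted p = 0.220 from limma) and -0.19 without injected oocyte 9 (adjusted p = 0.698 from limma).

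NOBOX, an oocyte homeobox factor, was found in every oocyte at 21 to 108 UMIs in the injected and 30 to 99 UMIs in the non-injected group. It ran from 95.5 to 309.6 RPM (median 185) in siRNA injected and from 109.7 to 332 RPM (median 234) in non-injected oocytes, so the ranges nearly coincided. Of the injected oocytes 8 lay below the non-injected median and 4 above. The means were 196 ± 67.1 RPM with injection and 228 ± 65.1 RPM without, a log2 fold change of -0.23 (standard error 0.17, 95% interval -0.58 to 0.12, adjusted p = 0.618 from limma). Without siRNA injected oocyte 8 the log2 fold change was -0.30 (adjusted p = 0.483).

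LHX8, a LIM homeodomain factor, ran from 37.6 to 117 RPM (median 63.7) in siRNA injected and from 36.0 to 93.7 RPM (median 58.6) in non-injected oocytes. Only oocyte 8 exceeded the non-injected range, and the groups otherwise overlapped. The means were 64.7 ± 21.9 RPM with injection and 57.9 ± 15.3 RPM without, a log2 fold change of 0.12 (standard error 0.18, 95% interval -0.23 to 0.48, adjusted p = 0.825 from limma). Without oocyte 8 the log2 fold change was 0.05 (adjusted p = 0.941).

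FIGLA, a helix-loop-helix factor that in the mouse drives the zona pellucida genes, ran from 14.3 to 70.9 RPM (median 47.8) in siRNA injected and from 18.1 to 69.3 RPM (median 35.4) in non-injected oocytes. The lowest and the highest value of the 24 were both in injected oocytes, 4 and 8. Of the injected oocytes 9 were above the non-injected median. The means were 46.9 ± 16.2 RPM with injection and 38.4 ± 15.8 RPM without, a log2 fold change of 0.26 (standard error 0.22, 95% interval -0.18 to 0.70, adjusted p = 0.672 from limma), and 0.20 (adjusted p = 0.774) without oocyte 8.

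**Figure D2:**
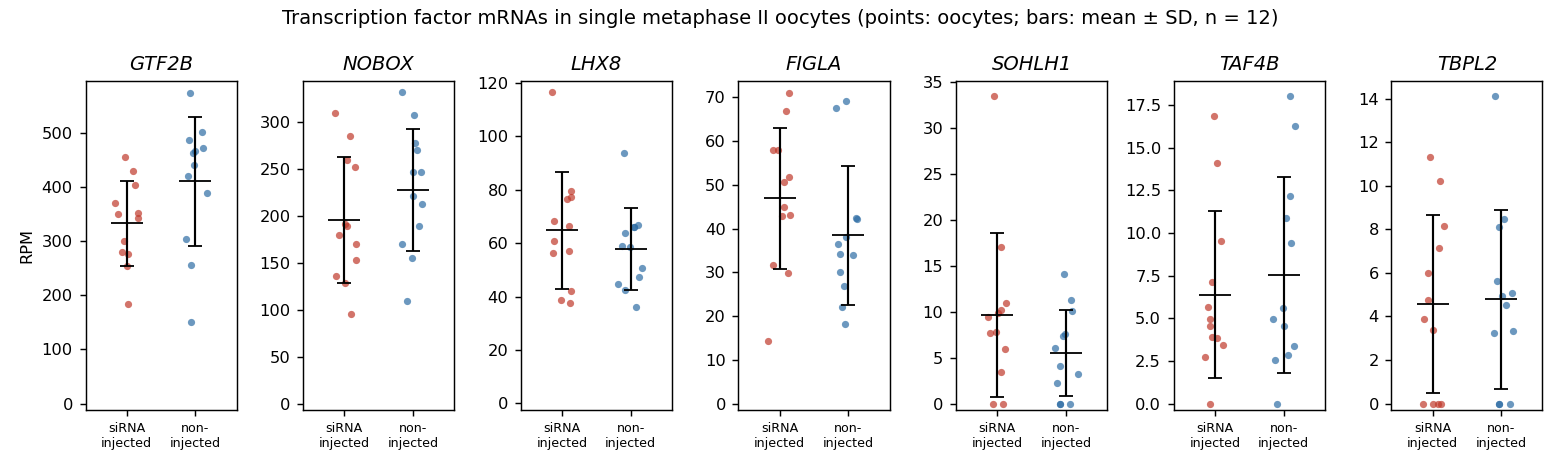
RPM of the 7 factors in each oocyte, with siRNA injected oocytes in red on the left and non-injected oocytes in blue on the right of each panel; horizontal bars with whiskers are the mean ± SD (n = 12 each), and each panel has its own linear axis. The groups overlap in every panel, and GTF2B shows most injected oocytes below the non-injected median of 453 RPM.

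The tests above came from limma, fitted to log2(RPM + 5) in the 7256 rows whose mean reached 10 RPM. P-values were adjusted over these rows by the method of Benjamini and Hochberg, and calls needed an adjusted p under 0.05 together with a fold over 1.2. On this scale the fold of a low gene is understated. The call was made for 0 of the 4 factors that met the mean and for 16 of all tested rows (0.221%), of which 6 were higher (0.0827%) and 10 lower (0.138%) in siRNA injected oocytes. With 4 genes the count cannot be set apart from that background. In limma 0 of the 4 had an unadjusted p under 0.05, beside 903 of the 7256 rows (12.4%). On UMI counts recovered from the RPM values, edgeR called 0 of the 4 and 7 of all rows (0.0965%). DESeq2 gave an adjusted p to 3458 rows only and called 113 of these (3.27%). It gave none to FIGLA and called 0 of the other 3 factors. GTF2B had an unadjusted p under 0.05 in edgeR (p = 0.0465, log2 fold change -0.31, adjusted p = 0.424), as did 11.6% of all rows. The signs were mixed, with 2 log2 fold changes above and 2 below 0 and a median of -0.05, beside a median of 0.02 over all tested rows. A larger absolute log2 fold change was found in 33.2% of tested rows than for GTF2B, 38.5% than for NOBOX, 33.9% than for FIGLA and 64.4% than for LHX8.

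SOHLH1, a helix-loop-helix factor of early oocytes, was above 0 in 10 of 12 siRNA injected and 9 of 12 non-injected oocytes. It had 33 UMIs in all injected and 22 in all non-injected oocytes. The values ran from 0 to 33.4 RPM (median 8.60) in injected and from 0 to 14.0 RPM (median 5.03) in non-injected oocytes. The highest, in injected oocyte 3, rested on 7 UMIs. The means were 9.63 ± 8.87 RPM with injection and 5.50 ± 4.71 RPM without. From limma without a filter on low values, with p adjusted over 16442 rows, the log2 fold change was 0.41 (standard error 0.31, 95% interval -0.22 to 1.04, adjusted p = 0.769). It was 0.26 without injected oocyte 3 (adjusted p = 0.770) and 0.34 without injected oocyte 8 (adjusted p = 0.746).

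TAF4B, the gonadal TFIID subunit, was above 0 in 11 of 12 oocytes of either group. It ran from 0 to 16.9 RPM (median 4.74) in siRNA injected and from 0 to 18.01 RPM (median 5.27) in non-injected oocytes. No oocyte had more than 5 UMIs. The means were 6.39 ± 4.88 RPM with injection and 7.54 ± 5.74 RPM without (log2 fold change -0.11, standard error 0.28, 95% interval -0.68 to 0.46, adjusted p = 0.910 from limma without a filter). The log2 fold change is smaller in size than its standard error, and it stayed at -0.11 without injected oocyte 8 (adjusted p = 0.919).

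TBPL2, the oocyte form of the TATA-binding protein in mouse, was the lowest of the set. It was above 0 in 8 of 12 siRNA injected and 9 of 12 non-injected oocytes, with 17 UMIs in all injected and 18 in all non-injected oocytes. The values ran from 0 to 11.3 RPM (median 4.34) in injected and from 0 to 14.1 RPM (median 4.74) in non-injected oocytes, with means of 4.57 ± 4.10 RPM with injection and 4.79 ± 4.11 RPM without. The log2 fold change was -0.05 (standard error 0.26, 95% interval -0.58 to 0.49, adjusted p = 0.968 from limma without a filter). It was -0.13 without injected oocyte 8 (adjusted p = 0.888), and its sign changed when other single oocytes were left out, so no direction can be given.

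**Figure D3:**
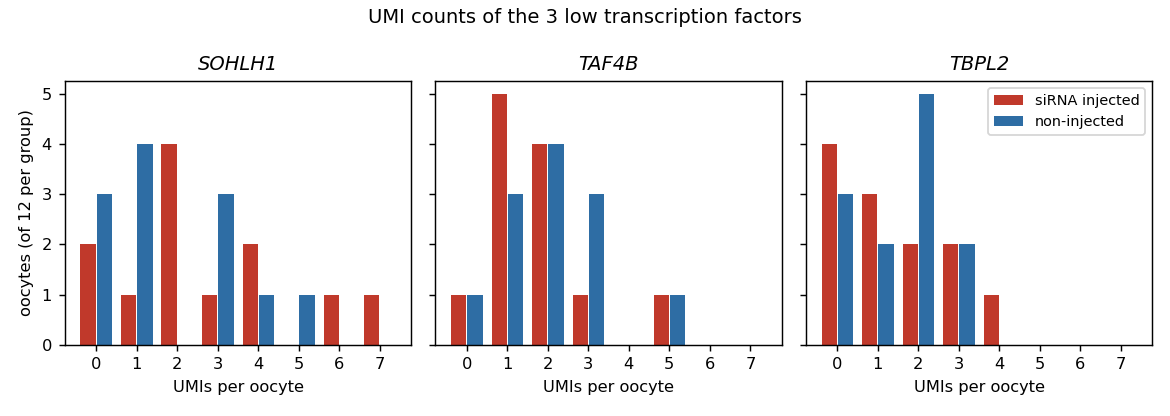
Number of oocytes (of 12 per group) with each number of UMIs of SOHLH1, TAF4B and TBPL2, siRNA injected in red left of non-injected in blue. Most oocytes hold 0 to 3 UMIs, and the highest count is 7, for SOHLH1 in an injected oocyte.

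A value of 0 does not show absence at this depth. SOHLH1 was at 0 in 5 oocytes, TAF4B in 2 and TBPL2 in 7. A count of 0 allows up to 3 counts, which is 10.7 to 22.1 RPM in the oocytes without SOHLH1, 8.97 to 22.1 RPM in those without TAF4B and 7.41 to 22.1 RPM in those without TBPL2. These limits, which cover counting error only, lie above the means of the genes. Detection was compared with Fisher's exact test, two-sided, over the 10552 rows found in some but not all oocytes. The p was 1 for SOHLH1, TAF4B and TBPL2 alike (adjusted p = 1), and 0 rows of the whole table (0%) passed an adjusted p under 0.05, with 98 at an unadjusted p under 0.05. Each oocyte was also thinned to 134080 UMIs by a single random draw, and another draw may give other numbers. SOHLH1 was then found in 8 injected and 6 non-injected oocytes (exact p = 0.680), and TAF4B in 6 injected and 7 non-injected (exact p = 1). TBPL2 was found in 3 injected and 7 non-injected oocytes (exact p = 0.214), and the adjusted p was 1 for each gene. All 7 measured factors were found in 6 of 12 injected and 8 of 12 non-injected oocytes.

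The spread between oocytes was set against the error of counting. GTF2B and NOBOX varied more than counting allows, with a coefficient of variation of 28.5% and 31.4% over 24 oocytes, where their UMI numbers alone would give 9.91% and 13.2%. The part beyond counting was 26.7% and 28.5%, beside a median of 25.6% over all tested rows. These rows had a median mean of 46.6 RPM, and genes at the level of GTF2B and NOBOX were not compared apart. LHX8 and FIGLA had coefficients of 30.7% and 38.1%, against 24.2% and 28.8% from counting, which leaves 18.9% and 24.9%. For LHX8 this rested on injected oocyte 8, without which 5.75% was left. TAF4B and TBPL2 varied about as counting gives, at 75.3% against 75.1% for TAF4B and 85.7% against 86.1% for TBPL2. The part beyond counting was 5.49% for TAF4B and 0% for TBPL2, and with 1 oocyte left out it ran from 0% to 20.2% and from 0% to 19.7%. SOHLH1 had 95.9% against 68.7% from counting, which leaves 67.0%, but without injected oocyte 3 it had 75.1% against 71.9%, which leaves 21.7%. The variance of its UMI counts was then 0.984 times that of counting alone, beside 1.62 times over all 24 oocytes.

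**Figure D4:**
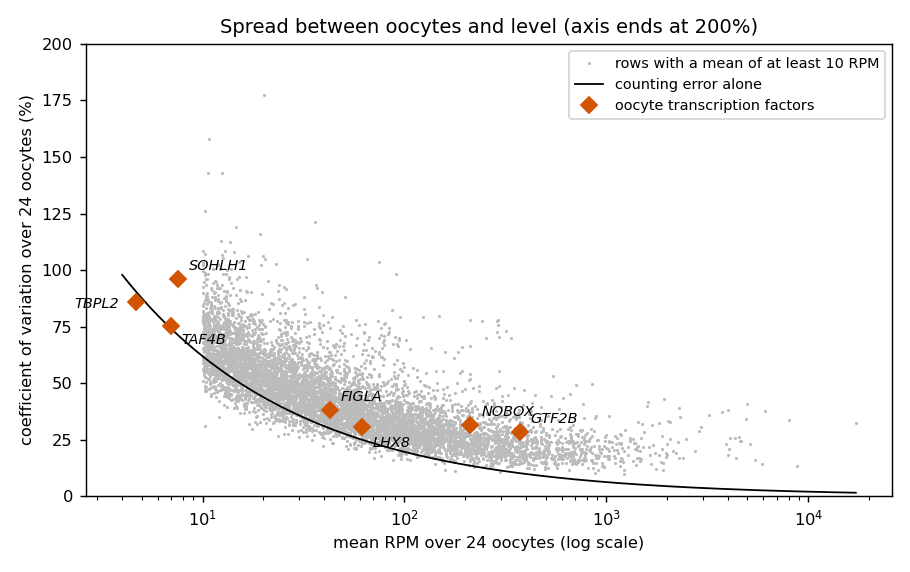
Coefficient of variation over 24 oocytes (%) against mean RPM (log scale) for the tested rows (grey) and the 7 transcription factors (diamonds); the line is the coefficient that counting UMIs alone would give. TAF4B and TBPL2 lie close to the line, and GTF2B and NOBOX lie above it, at 28.5% and 31.4% where counting gives 9.91% and 13.2%.

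The levels of the 4 high factors were weakly related over all oocytes. Over 24 oocytes, with group means removed, their 6 pairwise Spearman correlations lay between -0.20 (NOBOX with LHX8) and 0.33 (NOBOX with FIGLA). These describe the libraries, which also share their depth. NOBOX and FIGLA had a rho of 0.74 in the 12 injected and -0.27 in the 12 non-injected oocytes, and 0.66 in the injected group without oocyte 8. GTF2B and LHX8 had a rho of 0.49 in the injected and 0.20 in the non-injected oocytes, and 0.64 in the injected group without oocyte 8. These pairs had the highest rho of the 6 in the injected oocytes, where the others lay between -0.20 and 0. Whether the groups differ in any pair was not tested. FIGLA and SOHLH1 ran with the number of rows above 0 in the oocyte (rho 0.61 and 0.55, n = 24), and the part of this in their levels was not tested. For the summed cumulus and granulosa markers the rho lay between -0.30 for GTF2B and 0.11 for TAF4B.

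Among the 3991 named genes whose mean reached 30 RPM, those most like GTF2B over the 24 oocytes were NDUFA6 and NDUFC1, subunits of mitochondrial complex I, and NQO1, a quinone reductase (rho 0.85, 0.82 and 0.82). For NOBOX they were RAD54L, a recombination protein, PLEKHG1 and the translation factor subunit EIF2B4 (0.69, 0.68 and 0.66). For LHX8 they were CELF1, an RNA-binding protein, UQCRB of mitochondrial complex III and LAMTOR3, a scaffold of lysosomal signalling (0.78, 0.71 and 0.70). For FIGLA they were ATP5J2, a subunit of ATP synthase, ARMC7 and the peroxidase PRDX2 (0.75, 0.71 and 0.69). They are the highest of 3991 values each, and say nothing of shared control.

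Partners of the factors were measured at levels that differed widely. TBPL1, another relative of TBP, averaged 724 RPM, 155 times the mean of TBPL2, and exceeded it in 24 of 24 oocytes. TFIIA, the partner of TBPL2 in mouse, was found through GTF2A1 at 85.6, its germ cell relative GTF2A1L at 50.6 and the small subunit GTF2A2 at 365 RPM. GTF2A1 and GTF2A2 exceeded TBPL2 in 24 oocytes each and GTF2A1L in 23. TAF3 and TAF5, TFIID subunits at 353 and 235 RPM, were 50.7 and 33.7 times the mean of TAF4B. TBP, TAF1, TAF4 and TAF12 matched no row and were not analysed here. These pairs, and those with GDF9, BMP15, KIT and TCF12 below, were chosen after the values were seen. Those with POLR2A, ZP2, SOX2, TCF3 and TCF4 below were also outside the plan, which compared only neighbours in the order of mean RPM.

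The other general factors were set beside the same background. Of 11 measured TFIID subunits 9 were tested, and limma and edgeR called 0, as did DESeq2 among the 6 to which it gave an adjusted p. TAF2, TAF8 and TAF13 had none. There were 0 at an unadjusted p under 0.05 in limma (median log2 fold change 0.07). Over all tested rows limma called 0.221%, and 12.4% had an unadjusted p under 0.05. TAF10 and TAF7 averaged 279 and 110.5 RPM. The smallest p were those of TAF13 (13.0 ± 4.79 RPM with injection and 8.72 ± 4.88 RPM without, adjusted p = 0.468 from limma) and TAF8 (15.9 ± 7.04 RPM with injection and 10.5 ± 6.29 RPM without, adjusted p = 0.468). Of 15 tested genes of TFIIA, TFIIE, TFIIF, TFIIH and TBPL1, 0 were called by limma and edgeR, or by DESeq2 among the 8 with an adjusted p from it, and 1 had an unadjusted p under 0.05 in limma (median log2 fold change 0.05). This was MNAT1, a subunit of the TFIIH kinase, at 212 ± 38.7 RPM with injection and 158 ± 34.6 RPM without (log2 fold change 0.42, limma adjusted p = 0.156, DESeq2 adjusted p = 0.0609). In 10 of 12 injected oocytes it exceeded the median of the non-injected. GTF2H4 of TFIIH was at 20.9 ± 10.3 RPM with injection and 30.4 ± 12.2 RPM without (log2 fold change -0.51, adjusted p = 0.412). GTF2E2 and GTF2F2 averaged 432 and 266 RPM.

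All 12 subunits of RNA polymerase II were measured and tested, and 0 were called by limma or edgeR, or by DESeq2 among the 6 to which it gave an adjusted p. In limma 1 had an unadjusted p under 0.05 (median log2 fold change 0.15), beside 12.4% of all tested rows. The share called by limma over all tested rows was 0.221%. POLR2H had 165 ± 27.2 RPM with injection and 130.4 ± 43.6 RPM without (log2 fold change 0.39, limma adjusted p = 0.284), and all 12 injected oocytes lay above the non-injected median. POLR2L, at 39.3 ± 17.5 RPM with injection and 26.5 ± 10.1 RPM without, was next (adjusted p = 0.472, none from DESeq2). POLR2J and POLR2C averaged 381 and 139 RPM. POLR2A, the largest subunit, averaged 83.7 RPM and lay below GTF2B in 24 of 24 oocytes.

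Of 12 listed genes that depend on these factors in the mouse ovary 8 were measured, and these were mostly high. The median of their means was 518 RPM over the 7 tested genes, beside 46.6 RPM over all tested rows. All of the 7 but KIT were also on the list of oocyte markers above, so their high level is no separate observation. The other measured one, FGF8, was above 0 in 1 oocyte, at a mean of 0.118 RPM. They were led by ZP2, a zona pellucida protein, at 1879 RPM, then H1FOO, the oocyte linker histone, ZAR1, a regulator of maternal mRNA, and MOS, the kinase that holds metaphase II, at 817, 578 and 518 RPM. ZP2 was 44.0 times the mean of FIGLA. GDF9 and BMP15, growth factors that the oocyte sends to the cumulus, averaged 351 and 148 RPM. GDF9 exceeded NOBOX in 20 of 24 oocytes, while NOBOX exceeded BMP15 in 17 and tied in 2. KIT, a receptor of the growing oocyte, averaged 256 RPM and exceeded LHX8 in 24 of 24.

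Of the 7 tested genes of this group 0 were called by limma, edgeR or DESeq2, and 2, MOS and H1FOO, had an unadjusted p under 0.05 in limma, beside 12.4% of all tested rows. MOS was at 588 ± 138 RPM with injection and 448 ± 94.0 RPM without (log2 fold change 0.38, adjusted p = 0.195), and H1FOO at 920.2 ± 208 RPM with injection and 714 ± 125 RPM without (log2 fold change 0.35, adjusted p = 0.211). The list's median log2 fold change was 0.12. GDF9 was highest in injected oocyte 8 at 1001 RPM, where NOBOX and FIGLA were also at the top of the group.

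Factors of pluripotent cells were present in part. SALL4 and SOX2 averaged 324 and 253 RPM. SOX2, whose protein pairs with POU5F1, ran from 40.6 to 629 RPM over the 24 oocytes and exceeded NOBOX in 12 of them. PRDM1, KLF5 and KLF4 followed at 42.6, 31.2 and 24.5 RPM. Of 5 tested genes 0 were called by limma or edgeR and 0 had an unadjusted p under 0.05 in limma. The limma shares over all tested rows were 0.221% and 12.4%. DESeq2 gave an adjusted p to 2 of them, SALL4 and SOX2, and called 0. KLF4 had 29.5 ± 19.1 RPM with injection and 19.6 ± 10.8 RPM without (adjusted p = 0.524), and SALL4 had 333 ± 80.2 RPM with injection and 314 ± 117 RPM without (adjusted p = 0.769). NANOG matched no row and was not analysed here.

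Among other factors of germ cells YBX2, a protein that binds maternal mRNA, and STAT3 averaged 1434 and 992 RPM. FIGLA acts in the mouse as a pair with an E protein encoded by TCF3. TCF3 averaged 51.2 RPM and exceeded FIGLA in 16 of 24 oocytes with 2 ties, and the related TCF4 averaged 80.7 RPM and exceeded it in 20, whereas TCF12, at 9.50 RPM, was exceeded by FIGLA in 23. Of 5 tested genes limma and edgeR called 0, with 2 at an unadjusted p under 0.05 in limma (12.4% of all tested rows). DESeq2 gave 4 of them an adjusted p and called 1, YBX2, beside 3.27% of all rows with one. YBX2 was at 1264 ± 263 RPM with injection and 1605 ± 284 RPM without (log2 fold change -0.35, limma adjusted p = 0.193, DESeq2 adjusted p = 0.0407). TCF4 was at 68.6 ± 21.8 RPM with injection and 92.7 ± 30.6 RPM without (log2 fold change -0.40, limma adjusted p = 0.344). The list's median log2 fold change was -0.25 over these 5 genes.

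Of 12 listed transcription factors of granulosa and theca cells 9 were measured, and most of these were low. Their median mean was 1.21 RPM over 9 measured genes, but the mean of NR0B1 lay above those of LHX8 and FIGLA. The means of LHX9 and GATA4 lay above that of TBPL2. NR0B1 alone met the mean for testing, at a mean of 66.9 RPM, and had 67.7 ± 20.3 RPM with injection and 66.1 ± 16.9 RPM without (log2 fold change 0.02, limma adjusted p = 0.973, not called by edgeR or DESeq2). LHX9, a relative of LHX8, averaged 6.34 RPM, and GATA4 and ESR2 averaged 4.89 and 2.72 RPM. Of 6 tested cumulus and granulosa markers 0 were called by limma or edgeR, with 0 at an unadjusted p under 0.05 in limma. The limma shares over all tested rows were 0.221% and 12.4%. DESeq2 gave an adjusted p to HAS2 only, which it did not call.

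**Figure D5:**
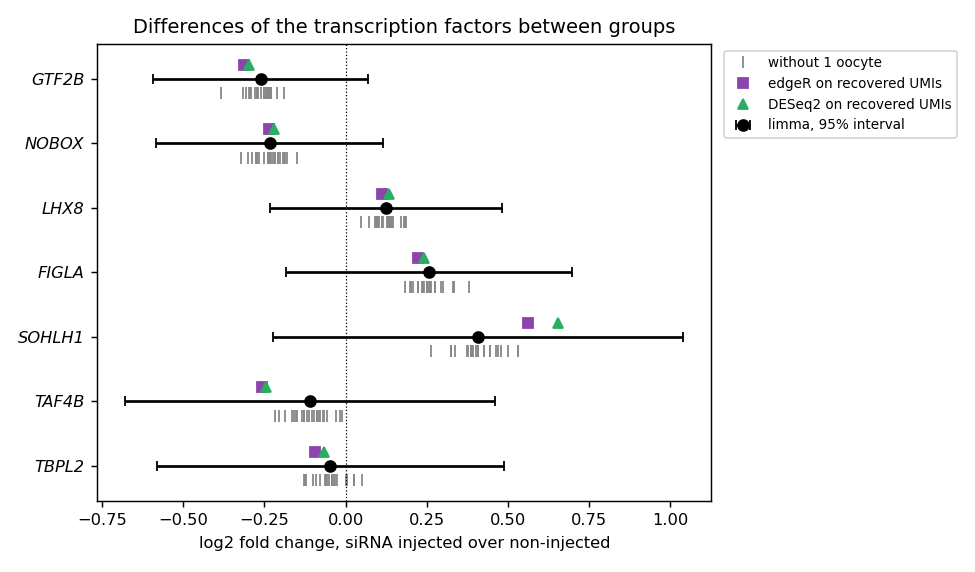
Log2 fold change of the 7 factors, siRNA injected over non-injected, on the horizontal axis; black points with bars are the limma estimate and its 95% interval, grey ticks the estimate without 1 oocyte, squares edgeR and triangles DESeq2 on recovered UMI counts. All 7 intervals include 0, and the ticks of TBPL2 lie on both sides of 0, from -0.13 to 0.05.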

How the data were processed

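The authors demultiplexed the CEL-seq2 reads, mapped them to a cDNA library, counted reads of 1 gene with 1 UMI once, and deposited the result as RPM in 24 columns, all used here; no column belonged to another sample. UMD3.1 is the build in the submitters' processing notes. No source used here names an aligner. The UMI counts behind the RPM were recovered by inverting the usual adjustment for repeated draws of a UMI (capacity 4048, found by a scan), which left 100% of the values whole within 0.001.

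Rows were matched by symbol. The factors and gene lists were chosen with earlier results of these data known. Named genes are the 9 factors, the 4 highest and every called gene of each list, the 2 with the smallest p in 6 lists, and the 3 most similar genes per factor; FSHR, LUM, FGF8, GDF9, BMP15, KIT, TCF12, GTF2A1 and GTF2A1L, and genes said to lack a DESeq2 value, were named after their values were seen. The main test was limma 3.58.1 in R 4.3.3 (eBayes with trend), with edgeR 4.0.16 and DESeq2 1.42.0 on the recovered counts as alternatives. Detection used Fisher's exact test in scipy 1.17.1. The fits were tested on simulated data with the same spread setting for every gene, where recovery was required only of 3-fold changes. Recovery of changes as small as those of the factors was not tested. Other pseudocounts, filters, TMM scaling, a depth term, a replicate block and leaving out each oocyte were tried. Coordinates and sequences were not used here.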

Additional observations from a re-analysis of the deposited data

How the results depend on the processing

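None of the 7 factors was called in the 225 alternative fits of their log2 fold changes. Those of SOHLH1, TAF4B and TBPL2 used no filter on low values, where the main fit called 0 of 16442 rows (0%). Without non-injected oocyte 8, 10 or 11 limma called 0 of the 7256 filtered rows as well. An absence of calls in such fits says nothing particular about the factors. Of the 225 fits, 4, from DESeq2, gave no adjusted p, and 218 kept the sign. The other 7 were TBPL2 without 1 oocyte (range -0.13 to 0.05, with 0.0506 without non-injected oocyte 3, 0.0256 without injected 1, 10, 11 or 12, 0.00139 without non-injected 2 and 0.00494 without non-injected 7). The leave-one-out ranges were -0.38 to -0.19 for GTF2B, -0.32 to -0.15 for NOBOX, 0.05 to 0.19 for LHX8, 0.18 to 0.38 for FIGLA, 0.26 to 0.53 for SOHLH1 and -0.22 to -0.01 for TAF4B. Counted at a minimum of 10 RPM, TBPL2 was found in 2 injected and 1 non-injected oocytes, a difference of 1 in place of -1.

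The count of 16 called rows became 9 with a pseudocount of 1 RPM, 0 with no filter (1332 at an unadjusted p under 0.05), 52 at a mean of at least 30 RPM, 31 with depth as a term, 7 with edgeR and 113 with DESeq2. Leaving out 1 oocyte gave 0 to 37, with 0 without non-injected oocytes 8, 10 and 11 (888, 888 and 824 at an unadjusted p under 0.05), 4 without 6, 5 without 1, and 10 without 3 or 12. Among the injected it became 5 without 1, 25 without 3, 37 without 4, 2 without 6, 9 or 12, 6 without 7, 7 without 8 and 1 without 10. The cause was not tested. No source used here ties a replicate number to one cow or session. Same-numbered oocytes correlated at a median of -0.01, 1 of 12 injected oocytes correlated best with its own number, and the replicate block gave 11 calls, with -0.26 for GTF2B, -0.23 for NOBOX, 0.12 for LHX8, 0.26 for FIGLA, 0.41 for SOHLH1, -0.11 for TAF4B and -0.05 for TBPL2. DESeq2 gave FIGLA, SOHLH1, TAF4B and TBPL2 no adjusted p. The spread without each oocyte and the correlations without injected oocyte 8 were added after seeing the data. Depth limits SOHLH1, TAF4B and TBPL2, which rested on 55, 46 and 35 UMIs over 24 oocytes.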
